A study of Homo sapiens with 4 samples.

Results

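GATA2 peaks that lie away from promoters and carry a GATA:E-box composite were examined in K562, an established cell line from chronic myeloid leukaemia that expresses GATA2. A composite was defined here as CTG followed on the same strand by GATAA after 8 or 9 bases, CTG being the last bases of an E-box (CANNTG) and GATAA the core of a GATA site. Members were the peaks whose hg38 sequence held a composite on either strand and whose midpoint lay 1 to 100 kb from the nearest transcription start site (TSS) of a protein-coding gene, leaving out peaks with 4 or more consecutive GATA units. They numbered 4888 of the 31777 peaks of asynchronous cells and 402 of the 1648 peaks of mitotic cells. Among the distal peaks that could have been chosen, 20.3% of 24073 asynchronous peaks (95% exact binomial interval 19.8 to 20.8) and 32.1% of 1254 mitotic peaks (29.5 to 34.7) were members. GATA2 had been measured by ChIP-seq, which sequences the DNA pulled down with an antibody and calls peaks where its reads pile up, with 1 GATA2 library from asynchronous cells and 1 from cells arrested in mitosis with nocodazole. Both populations were fixed with disuccinimidyl glutarate and formaldehyde, and the mitotic cells were sorted for MPM-2, a phosphoepitope of mitotic cells, in several rounds that were pooled, with less than 10% contamination by asynchronous cells per the labels. Neither condition had a replicate, and the lists give positions only, so all intervals cover counting error over peaks, the depth of the libraries is unknown here, and a site absent from the mitotic list may lie under its limit of detection.

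GATA factors bind the GATA core through zinc fingers, and in blood cells they act on many enhancers together with TAL1, a basic helix-loop-helix protein that binds E-boxes as a heterodimer with an E protein such as TCF3 or TCF4. LMO2 and LDB1 bridge the E-box dimer to the GATA factor, and the resulting complex is known for recognising an E-box and a GATA site a fixed distance apart on one face of DNA. CBFA2T3 (ETO2) is a corepressor recruited to the same complex, and ZFPM1 (FOG-1) binds GATA1 and GATA2 directly.

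The composites below show what the rule selects, with CTG and GATAA in capitals and 12 bases to each side, each read 5′ to 3′ on its own strand from hg38. The first 12 lie in mitotic peaks near GATA and FOG genes, genes of the TAL1 complex, other haematopoietic regulators, heme and iron genes and a cytokine receptor, and that of KDM6A, a histone demethylase gene, lies in the widest mitotic member with a spacing of 8 only. The last 3, added after the values were seen, are the asynchronous members nearest to GATA2 itself.
ZFPM1 (chr16:88455980-88456020, minus strand): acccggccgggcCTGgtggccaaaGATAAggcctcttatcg
CBFA2T3 (chr16:89004294-89004334, plus strand): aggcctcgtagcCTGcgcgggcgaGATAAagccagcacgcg
TCF4 (chr18:55735383-55735423, minus strand): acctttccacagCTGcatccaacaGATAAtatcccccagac
LMO2 (chr11:33945046-33945085, plus strand): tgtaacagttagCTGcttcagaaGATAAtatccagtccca
GATA6 (chr18:22093885-22093925, minus strand): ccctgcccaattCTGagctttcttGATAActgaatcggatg
UROD (chr1:45039133-45039172, minus strand): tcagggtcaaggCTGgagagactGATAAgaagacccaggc
HHEX (chr10:92756390-92756430, minus strand): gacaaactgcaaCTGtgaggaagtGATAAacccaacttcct
GFI1 (chr1:92446794-92446834, minus strand): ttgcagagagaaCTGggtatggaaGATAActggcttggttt
RUNX1 (chr21:34908644-34908683, plus strand): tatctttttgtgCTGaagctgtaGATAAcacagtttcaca
IKZF2 (chr2:212979997-212980036, minus strand): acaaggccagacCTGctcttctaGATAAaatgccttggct
FTH1 (chr11:62042086-62042126, minus strand): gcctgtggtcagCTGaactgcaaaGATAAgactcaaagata
KIT (chr4:54571408-54571448, plus strand): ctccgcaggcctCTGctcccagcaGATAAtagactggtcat
KDM6A (chrX:44915675-44915714, minus strand): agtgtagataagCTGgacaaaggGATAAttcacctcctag
GATA2 (chr3:128483299-128483339, minus strand): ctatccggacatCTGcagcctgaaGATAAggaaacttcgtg
GATA2 (chr3:128495588-128495628, minus strand): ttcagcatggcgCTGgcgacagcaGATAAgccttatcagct
GATA2 (chr3:128496670-128496710, minus strand): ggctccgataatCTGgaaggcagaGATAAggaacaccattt

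Across the 16 sequences the base before GATAA was A in 12. A whole E-box stood in TCF4 and FTH1 (CAGCTG), HHEX (CAACTG) and the first GATA2 sequence (CATCTG). The ZFPM1 peak lay in intron 1 of ZFPM1, the RUNX1 peak in intron 2 of RUNX1, and the first GATA2 peak in intron 4 of GATA2, while the CBFA2T3, TCF4, LMO2, GATA6, KIT and FTH1 peaks lay upstream of and outside their genes.

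In distal GATA2 peaks the pair of strings was most frequent at exactly the spacings of the composite, in 1 of 4 arrangements. CTG and GATAA 8 bases apart were found in 2100 asynchronous peaks and 9 bases apart in 2927, against a mean of 1073 over the 29 other spacings from 0 to 30, ratios of 1.96 and 2.73. In the mitotic list the numbers were 170 and 247 peaks against a mean of 65.7, ratios of 2.59 and 3.76. Just outside the rule, a spacing of 7 was found in 980 asynchronous peaks and a spacing of 10 in 1525, the highest of the other spacings. The rule uses spacings 8 and 9, so these counts are a description of the members. With the E-box part reversed (CAG then GATAA), or with GATAA first and CTG or CAG second, spacings 8 and 9 gave 0.916 to 1.09 times the mean of the other spacings in the asynchronous list. Equally wide sequences lying 5 kb on either side of the asynchronous peaks held the composite in 2.49% (2.35 to 2.64), and those beside the mitotic peaks in 1.46% (1.02 to 2.02), so that the asynchronous peaks held it 8.14 times as often as their flanks. In these 46302 flanks the counts by spacing ran from 448 to 763 outside spacings 8 and 9, with 571 at 8 and 592 at 9. The same strings were also more frequent in peaks than in flanks at nearly all other spacings, with ratios of 1.00 to 5.33, the latter at a spacing of 10, against 7.07 at 8 and 9.51 at 9. For the other 3 arrangements the ratios outside 8 and 9 ran from 1.40 to 4.93.

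Most members carried a single composite. Of the asynchronous members 4608 held 1, 267 held 2, 12 held 3 and 1 held 4, which made 5182 composites, and the mitotic members held 444. A spacing of 9 made up 58.2% of the composites in asynchronous and 59.5% in mitotic peaks. GATAA was preceded by A in 60.9% and by T in 29.2% of asynchronous composites, and C or G stood there in 9.88%.

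The letters around the composite were compared with those around displaced pairs, meaning CTG then GATAA at spacings of 4 to 7 or 10 to 13 in distal asynchronous peaks without a composite (6976 pairs in 5639 peaks). A whole E-box, which given CTG needs CA before the base that precedes it (CANCTG), was found in 13.5% of composites (12.6 to 14.5) and in 8.46% of displaced pairs (7.81 to 9.14). The difference was 5.05 percentage points (Newcombe interval 3.92 to 6.20), and most of it was CATCTG, with 6.06% against 2.41%. CAGCTG made up 4.26% against 3.56%, and CAACTG 1.45% against 1.43%. T stood before CTG in 36.1% of composites and 29.4% of displaced pairs (difference 6.71, 5.02 to 8.40), and A stood after CTG in 16.0% against 24.6% (difference -8.52, -9.93 to -7.09). AGATAA was 4.48 points more frequent (2.71 to 6.24), while GATAAG was found in 41.8% and 42.3%, a difference of -0.465 (-2.24 to 1.31). Between the 2 spacings no difference in whole E-boxes was detectable, with 14.0% at 8 and 13.1% at 9 (difference 0.916, -0.962 to 2.83), while the base after CTG was C in 28.8% at a spacing of 8 and in 23.8% at 9 (difference 5.02, 2.59 to 7.47).

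Composites lay close to the middle of their peaks. The median distance from the centre of the composite to the peak midpoint was 53.0 bp in asynchronous members (quartiles 23.0 and 100) and 46.8 bp in mitotic members (21.5 and 84.8). For comparison in the asynchronous list it was 57.5 bp for displaced pairs, 63.5 bp for GATAA in other distal asynchronous peaks and 100 bp for the further GATA motifs of the members, a GATA motif being GATA with A or T before it and A or G after it. In the mitotic list it was 52.5 bp for GATAA in other distal peaks and 65.0 bp for the further GATA motifs of the members. Median widths were 440 bp for asynchronous members, 419 bp for displaced-pair peaks, 365 bp for other distal peaks and 319.5 bp for mitotic members, and matches spread evenly over a peak lie at a median distance of its width divided by 4. The median width of the peaks that held the matches, divided by 4, was 112 bp for asynchronous and 81.2 bp for mitotic composites, 108 bp for displaced pairs, 107 bp for GATAA in other asynchronous peaks and 140.2 bp for the further GATA motifs, and relative to it the asynchronous composites lay nearer to the midpoint than the mitotic ones. Within 25 bp of the midpoint lay 27.6% of composites (26.3 to 28.8) and 22.1% of the GATAA of other peaks (21.7 to 22.6) in the asynchronous list, and 29.3% (25.1 to 33.8) and 25.4% (23.3 to 27.6) in the mitotic list, where the intervals overlapped. Where a member held its composite's GATA motif and exactly 1 other, the motif of the composite was the nearer to the midpoint in 824 of 1334 peaks, 61.8% (59.1 to 64.4), against 54.9% (52.2 to 57.7) for the motif of a displaced pair. In mitotic members the share was 50.9% of 116 peaks (41.4 to 60.3), an interval that includes an even split. Composites with AGATAA lay at a median of 49.0 bp, with TGATAA at 56.5 bp and with C or G before GATAA at 70.0 bp.

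Asynchronous members shared bases with a mitotic peak, which the study calls bookmarking, more often than other distal peaks. Of 4888 members 452 shared at least 1 base with a mitotic peak, 9.25% (8.45 to 10.1), where the background was 5.04% of all 31777 asynchronous peaks and 4.03% of the 19185 other distal peaks. The difference from the other distal peaks was 5.21 points (4.38 to 6.10), and from those that held GATAA somewhere (4.45% shared) it was 4.80 (3.95 to 5.70). Of the peaks with a displaced pair, which hold the same strings in the same order, 326 of 5639 were shared, 5.78% (5.19 to 6.42). Members exceeded them by 3.47 points (2.46 to 4.49), and by 1.66 points with an interval that included 0 (-0.124 to 3.50) where CANNTG was required in place of CTG. Peaks with the pair at 8 or 9 bases in one of the other 3 arrangements, and no composite, were shared in 6.31% of 4371 cases (difference 2.93, 1.84 to 4.02). Where at least 50% of both peaks had to overlap, the excess was 1.67 points over other distal peaks and 1.13 over displaced pairs. With only the central 200 bp of each peak searched, it was 2.96 points (2.09 to 3.91) and 2.90 points (1.84 to 3.99). No test between conditions was made, as each has 1 library.

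Peak width moved with both properties. From the narrowest to the widest of 5 equal groups of width the share of distal peaks that were members went from 12.8% to 30.9%. The whole peak was searched, and with the central 200 bp alone the excess of members over other distal peaks in median width was 10.5 bp in place of 75.0 bp. Members shared with a mitotic peak had a median width of 729.5 bp, against 418 bp for those not shared. In the widest group (above 561 bp, up to 2590 bp) 355 of 1488 members were shared, 23.9% (21.7 to 26.1), against 17.2% of displaced-pair peaks (15.3 to 19.3) and 16.7% of other distal peaks (15.4 to 18.0). Between 429 and 561 bp the shares were 6.97%, 4.59% and 4.03%. In the narrowest group 1 of 617 members and 5 of 4215 other peaks were shared. Averaged within the 5 groups, the members exceeded other distal peaks by 2.98 points and displaced pairs by 2.58 points, and within 20 groups, an alternative chosen after the data were seen, by 2.46 and 2.31 points. Members in the widest of the 5 groups were still somewhat wider than the other peaks there, with medians of 703 bp and 674 bp.

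Among the members, the number of composites and of further GATA motifs went with the share in mitotic peaks, and between the spacings no difference was detectable under the rule as set. Members with only a spacing of 8 were shared in 8.67% of 1961 cases and those with only a spacing of 9 in 8.93% of 2788, a difference of -0.262 points (-1.88 to 1.40), which became -3.36 (-5.97 to -0.680, an interval that excludes 0) where GATAAG was required and 1.62 (-1.18 to 4.53) with CANNTG in place of CTG. The 139 peaks with both spacings were shared in 23.7% (16.9 to 31.7). With 2 or more composites the share was 67 of 280, 23.9% (19.1 to 29.4), and with 1 it was 8.36%, a difference of 15.6 points (10.9 to 21.0) that came to 9.90 within groups of width. Members without a further GATA motif were shared in 3.38% of 1035 cases (2.37 to 4.67), with 1 in 5.61%, with 2 in 8.42%, with 3 in 16.0% and with 4 or more in 21.9% of 658 (18.8 to 25.2). Median width rose over the same 5 classes, from 327 bp to 718 bp.

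The letters of the composite itself made smaller differences. Members with a whole E-box were shared in 76 of 698 cases, 10.9% (8.68 to 13.4), and those without in 8.97% (8.13 to 9.88), a difference of 1.91 points whose interval included 0 (-0.372 to 4.58) and which was 2.58 within groups of width. It was -0.0445 (-2.85 to 3.43) with a spacing of 9 only and 3.36 (-0.204 to 7.75) with 8 only, 0.874 with GATAAG required and 1.06 within 1 to 50 kb. The interval excluded 0 in 4 of 17 alternatives that gave one, with 4.15 (0.484 to 8.34) for peaks of at least the median width, 2.85 (0.483 to 5.59) with TSSs of protein_coding transcripts only, 2.34 (0.111 to 4.96) for midpoints within 200 bp and 2.23 (0.213 to 4.53) at all distances. A G after GATAA went with 10.9% against 7.96%, a difference of 2.96 points (1.31 to 4.65), or 2.46 within groups of width. For an A before GATAA the difference was 0.782 points (-0.922 to 2.41).

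Short strings of other factors' motifs were counted in the members. AACCACA, which RUNX proteins bind, was found in 13.3% of asynchronous members and 14.4% of other distal peaks, AGGAAGT of ETS factors in 15.4% and 15.2%, and CCACACCC of KLF factors in 5.24% and 3.99%. TGACTCA or TGAGTCA of AP-1 was found in 585 asynchronous members and in 13.7% of other distal peaks (difference -1.74 points, -2.75 to -0.685). The flanks of these peaks held the RUNX, ETS, KLF and AP-1 strings in 7.33%, 8.28%, 4.53% and 6.42%. Within groups of width, members minus other distal peaks came to -3.24 points for AP-1 strings, -2.44 for RUNX strings, -1.27 for ETS strings and 0.627 for KLF strings. The E-box CAGCTG, not counting that of the composite itself, was found in 24.8% of members and 23.5% of other distal peaks. The difference was 1.37 points (0.0341 to 2.74). In 221 members the composite's own E-box was CAGCTG, and these matches were left out of the count. The CAGCTG difference turned to -1.46 within groups of width, as the ETS difference of 0.226 (-0.887 to 1.38) turned to -1.27. In mitotic members RUNX strings were found in 9.70% against 15.7% of other mitotic distal peaks (difference -6.03, -9.65 to -2.02), and AP-1 strings in 7.96% against 13.1% (difference -5.19, -8.51 to -1.47). ETS strings were found in 14.9% and 14.8% there (difference 0.137, -3.91 to 4.55). Asynchronous members with an ETS string were shared with a mitotic peak in 15.5% of 755 cases and those without in 8.11%, a difference of 7.39 points (4.83 to 10.3) that came to 4.00 within groups of width. For RUNX strings the difference of 4.90 points came to 1.71, and for AP-1 strings 2.70 came to -0.709.

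The mitotic interval usually contained the composite itself. In 396 of the 452 shared members, 87.6% (84.2 to 90.5), a composite lay whole inside the mitotic peak. The mitotic peak covered a median of 43.1% of the asynchronous one. No such share is given here for displaced pairs or further GATA motifs, so whether it is particular to composites was not tested. In 382 shared pairs of 1 peak each with 1 composite, it lay at a median of 72.5 bp from the asynchronous midpoint and 55.0 bp from the mitotic one, and the mitotic midpoint was the nearer in 218 of them, 57.1% (51.9 to 62.1). Even spread alone gives shorter distances in narrower peaks. All composites of shared asynchronous members lay at a median of 76.2 bp, where even spread gives 184 bp. Those of mitotic members lay at 46.8 bp, where it gives 81.2 bp. Of the 402 mitotic members 398 lay over an asynchronous member, 2 over another asynchronous peak and 2 over none. Membership rests on sequence, so an asynchronous peak that covers a mitotic member's composite is a member wherever it passes the same filters. The number 398 is thus largely set by the rule.

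Members were spread over 3502 of the 8615 protein-coding genes that had a distal asynchronous peak nearest to their TSS. A single member was found at 2567 of these genes and 5 or more at 36. ZFPM2 (FOG-2, a GATA cofactor), PLXNC1 (a semaphorin receptor) and CARMIL1 (a regulator of actin capping) had most, with 8 each, followed by EGLN3 (an oxygen-sensing prolyl hydroxylase) with 7. These came from 38 distal peaks at ZFPM2, 19 each at PLXNC1 and CARMIL1 and 26 at EGLN3. Mitotic members were found at 382 genes and reached 3 at ZFPM2 and at DNAJC6, a cochaperone of clathrin uncoating. UBE2F, SAXO2, MYO3B and SLC32A1 were among the 18 genes with 2 or more. NLK, a kinase, had 6 asynchronous members, 1 of them shared, whereas none of the 8 at PLXNC1 was shared. By place, 46.7% of asynchronous members lay in an intron of their gene's canonical transcript, 2.27% in an exon and 44.5% outside the gene, and of the mitotic members 39.1% lay in an intron and 52.5% outside. The widest mitotic member, 1042 bp, was that of ZFPM1, and the narrowest, 126 bp, lay 31168 bp upstream of SLC32A1, a vesicular transporter of inhibitory amino acids.

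Gene lists were read for how many members their genes had and how many of these were shared with a mitotic peak, beside 9.25% of all members and 4.03% of other distal peaks. Near the 7 GATA and FOG genes 6 of 17 members were shared, 35.3% (14.2 to 61.7), and 3 of 49 other distal peaks. Near the 16 genes of the TAL1 complex 4 of 12 members were shared, 33.3% (9.92 to 65.1), and 2 of 71 other peaks. Other haematopoietic regulators (32 genes) had 11 of 35 members shared, 31.4% (16.9 to 49.3), and 12 of 179 other peaks. Red cell genes had 6 of 22, 27.3% (10.7 to 50.2), and 2 of 56, and heme and iron genes 3 of 14, 21.4% (4.66 to 50.8), and 5 of 27. None of the 4 members near megakaryocyte and platelet genes, 7 near cytokine receptor and JAK-STAT genes and 6 near cell cycle and survival genes was shared, with upper limits of 60.2%, 41.0% and 45.9%, while 2 of 18, 3 of 67 and 3 of 29 other distal peaks near these genes were shared. The members of these 3 lists lay near THBS1 (2), TUBB1, PLEK, KIT (2), PIM1 (2), IL6ST, CSF3R, CCND3 (2), CDK6, BAK1 and CCND1, among others. Members made up 25.8% of distal peaks near GATA and FOG genes, 28.2% near red cell genes and 34.1% near heme and iron genes. The share was 14.5% for the TAL1 complex, 16.4% for other regulators, 18.2% for megakaryocyte, 17.1% for cell cycle and 17.5% for ribosomal protein genes. For cytokine receptors and JAK-STAT it was 9.46%, with an interval (3.89 to 18.5) below the 20.3% of all distal peaks. Near markers of cell types that K562 cells do not represent, members were 3 of 13 near hepatocyte markers (23.1%), 3 of 13 near neuron markers (23.1%, RBFOX3, SNAP25 and GAP43) and 3 of 22 near T cell markers (13.6%, SH2D1A and CD28), beside 20.3% of all distal peaks. None of these members was shared, and of the other distal peaks there 0 of 10, 0 of 10 and 1 of 19 were. Of 7 members near cytosolic ribosomal protein genes 1, at RPL38, was shared, and of 33 other distal peaks 2. Several members belong to one gene, so peaks within a list are not independent of each other.

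Within the GATA and FOG list, ZFPM2 had 8 members of which 3 were shared with a mitotic peak, ZFPM1 4 of which 1, GATA2 3 of which 1 and GATA6 2 of which 1. The ZFPM1 member lay 2067 bp downstream of the TSS, its mitotic peak held 6 GATA motifs, and its composite was 306.5 bp from the mitotic midpoint. GATA2 had 6 distal asynchronous peaks. Its intron 4 member (chr3:128483154-128483470), with CATCTG before a spacing of 9 and the composite 7.5 bp from the midpoint, had no mitotic peak, and neither had the member at chr3:128495385-128495789. Over the third, at chr3:128496358-128496998, a mitotic peak of 280 bp covered 9 bases of the composite (chr3:128496682-128496698), its CTG but not its GATAA, so that GATA2 had no mitotic member.

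In the TAL1 complex list, mitotic members lay near CBFA2T3 (26899 bp upstream of the TSS, 712 bp wide), TCF4 (70539 bp upstream) and LMO2 (52900 bp upstream). TCF4 had 4 asynchronous members of 22 distal peaks, 2 of them shared, LMO2 2 of 12 with 1 shared, and CBFA2T3 1 of 3, which was shared. ID2, an inhibitor of E proteins, had 2 members and 0 shared. CBFA2T3 stood out by 6 GATA motifs in its mitotic peak against 2 each at TCF4 and LMO2.

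Mitotic members near other regulators included 1 each at RUNX1, GFI1, HHEX, IKZF2, BACH1, BACH2 and CD9. The RUNX1 peak lay in intron 2, 18975 bp from the nearest RUNX1 TSS, and like the GFI1 and IKZF2 peaks it held 6 GATA motifs. RUNX1 had 4 members among 27 distal peaks, 1 of them shared, and FOXO3 had 3 members of which 1 was shared, with 0 mitotic members. The HHEX composite lay 13.5 bp and the GFI1 composite 8.5 bp from the mitotic midpoint.

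Of the red cell genes, EPB41 (protein 4.1 of the membrane skeleton) had 6 members among 12 distal peaks and 2 mitotic members, one of them in exon 9 and the other in intron 1. Single mitotic members were found at SLC4A1 (band 3, the anion exchanger, in intron 1), GYPC (glycophorin C, 10736 bp upstream), RHAG (an Rh-associated membrane glycoprotein, 9628 bp upstream, with 2 composites in 233 bp) and XK (in intron 2). At RHAG both GATA motifs of the mitotic peak belonged to composites. Of the heme and iron genes, UROD (a heme synthesis enzyme, 24499 bp downstream) and FTH1 (the ferritin heavy chain, 74517 bp upstream) had a mitotic member. SLC40A1 (ferroportin) and FECH (ferrochelatase) had 2 members each and 0 shared, and ABCB10, a mitochondrial transporter, had 2 with 1 shared and 0 mitotic members. KIT, the stem cell factor receptor, had a mitotic member 85836 bp upstream with the composite 2.5 bp from its midpoint, while its 2 asynchronous members, 68714 bp upstream and in intron 1, were not shared. The asynchronous peak under that mitotic member holds a run of GATA units and was left out by the rule.

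The share of distal peaks with a composite was similar in the bands of distance from 1 to 100 kb, from 19.3% at 1 to 3 kb to 20.7% at 30 to 100 kb. It was 16.0% (14.7 to 17.3) within 1 kb of a TSS and 23.7% (22.4 to 25.1) beyond 100 kb, both outside the rule. The share of composite peaks shared with a mitotic peak was 8.57% at 1 to 3 kb, 7.73% at 3 to 10 kb, 9.95% at 10 to 30 kb and 10.2% at 30 to 100 kb. Outside the rule it was 7.14% within 1 kb and 7.87% beyond 100 kb. In each of the 6 bands it was above that of peaks without a composite. By chromosome, members made up 18.1% (chromosome 22) to 25.2% (chromosome X, 22.1 to 28.5) of distal peaks. The share of members shared with a mitotic peak ran from 3.25% (chromosome 14, 0.893 to 8.12) to 13.8% (chromosome 2, 10.6 to 17.5), with wide intervals on most chromosomes. Another distal peak lay within 10 kb of 48.6% of members and 49.7% of other distal peaks, and the median GC content was 43.8% and 44.1%.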

How the data were processed

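GATA2 ChIP-seq peaks of asynchronous and mitotic K562 cells were used, 1 library each. Per the study's methods and processing notes, the authors aligned reads to hg38 with BWA 0.7.12, kept uniquely mapped reads, extended them, called peaks with MACS2 2.1.0 and Genrich 0.6.1 and removed blacklisted peaks. How the 2 callers and the inputs were combined is not given in the sources used here. The deposited lists hold chromosome, start and end in bp, with no signal, score or count. The input libraries were not analysed here.

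Strings were matched in hg38 on both strands, and GENCODE release 44 gave TSSs. Printed coordinates start at 1. Peaks overlapped where at least 1 base was shared. Flanks overlapping any peak were left out. Shares have exact binomial and differences Newcombe intervals, at 95%. Width was compared in 5 equal groups, weighted by the members. Wider peaks can hold more strings, and unknown depth limits the mitotic list. Search, interval and width steps were tested on simulated data. Sequences were read with pysam 0.24.0, tables handled with pandas 2.3.3, intervals computed with scipy 1.17.1 and numpy 2.4.6, and figures drawn with matplotlib 3.10.9, all in Python 3.11.15.

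The members and gene lists were chosen with earlier results of these data known. Named genes were those of 12 lists with a mitotic member, up to 4 per list with most asynchronous members, the 5 genes with most asynchronous and the 5 with most mitotic members, those of the widest and narrowest mitotic member, and GATA2. Sequences were taken from mitotic members near listed genes, TAL1 complex and GATA genes first. Results for some genes that this rule names are not reported here.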

Additional observations from a re-analysis of the deposited data

How the results depend on the processing

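Of 239 recomputed values 178 moved by less than the counting error of the reported value, or by less than 1.5 times for a count, 61 moved by more and 0 changed sign where the reported interval excluded 0. The whole E-box difference moved by less than its counting error in 18 alternatives, but its interval, which included 0 as reported, excluded 0 in 4 of them, with values of 2.23 to 4.15 points, and it was 1.06 (1 to 50 kb), 0.874 (GATAAG) and -0.0445 (9 only), the last with the sign turned.

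The definition of the composite changed counts most. With spacing 8 only there were 2100 asynchronous and 170 mitotic members, with 9 only 2927 and 247, with AGATAA required 3072 and 263, with GATAAG required 2125 and 207, and with CANNTG in place of CTG 1591 and 130. The excess over flanks, 17.8 points in asynchronous and 30.6 in mitotic peaks as reported, became 7.49 and 12.9 (8 only), 10.9 and 18.9 (9 only), 24.0 and 37.4 (7 to 10), 11.9 and 20.6 (AGATAA), 8.36 and 16.2 (GATAAG), 5.81 and 9.87 (CANNTG), 14.0 and 25.6 (central 200 bp), and 21.8 when narrower asynchronous peaks than the median were left out, which kept 3066 members. Fewer or more strings qualify in these settings. The excess of spacings 8 and 9 together over the other spacings, 2.34-fold as reported, was 2.61 (AGATAA), 2.45 (GATAAG), 2.89 (CANNTG) and 2.63 (central 200 bp).

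The excess of members over other distal peaks in the share of peaks shared with mitotic peaks, 5.21 points as reported, was 6.39 (GATAAG), 4.04 (CANNTG), 2.96 (central 200 bp), 1.67 (overlap of at least 50% of both peaks), 6.31 (without narrow peaks), 2.98 (within 5 groups of width) and 2.46 (20 groups). Over displaced pairs, 3.47 as reported, it was 1.66 (CANNTG, -0.124 to 3.50, which includes 0), 1.13 (overlap of at least 50%), 4.86 (without narrow peaks) and 2.31 (20 groups of width). Leaving spacing 10 out of the displaced pairs, also chosen after the data were seen, gave 3.53 points. The difference between spacings 8 and 9 was -3.36 (-5.97 to -0.680) with GATAAG and 1.62 (-1.18 to 4.53) with CANNTG.

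The median distance of composites from the midpoint was 54.8 bp (7 to 10), 49.0 (AGATAA), 49.5 (GATAAG), 34.5 (central 200 bp) and 72.5 (without narrow peaks), and that of GATAA in other peaks 65.5 (each of 8 only, an A before GATAA, a G after it and CANNTG in place of CTG), 39.5 (central 200 bp) and 92.5 (without narrow peaks). Members exceeded other peaks in median width by 65.0 bp (8 only), 57.0 (CANNTG), 10.5 (central 200 bp) and 45.0 (without narrow peaks), against 75.0 as reported. The composite lay whole in the mitotic peak in 83.3% (8 only), 92.8% (central 200 bp) and 98.1% (overlap of at least 50%) of shared members. The cause of these shifts was not tested. No paired analysis was possible because each condition has 1 library.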
